A study of Mus musculus with 6 samples.

Results

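Connexins are membrane proteins that assemble into hexameric hemichannels, and hemichannels of neighbouring cells dock to form gap junctions, through which ions and small metabolites pass directly from cell to cell. Astrocytes are coupled into a network mainly by Cx43 (Gja1) and Cx30 (Gjb6), with Cx26 (Gjb2) as a minor partner, and these channels are known for spreading potassium, glucose metabolites and calcium signals between astrocytes. Oligodendrocytes contribute to the astrocyte to oligodendrocyte junction through Cx32 (Gjb1) among others and also express Cx29 (Gjc3), whereas endothelial and smooth muscle cells of brain vessels use Cx37 (Gja4), Cx40 (Gja5) and Cx45 (Gjc1). Panx1 encodes pannexin 1, a related large-pore channel that releases ATP and does not usually form cell-to-cell junctions.

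The genes examined were 8 connexins and 1 pannexin, the rows of the gene table that carry these 9 symbols among 45777 genes listed. They fall into 3 astrocyte connexins (Gja1, Gjb6, Gjb2), 2 oligodendrocyte connexins (Gjb1, Gjc3), 3 vascular connexins (Gja4, Gja5, Gjc1) and Panx1. The libraries came from sorted astrocytes of male Aldh1l1 CreERT2; tdTomato fl/fl mice on a C57BL/6 background, which the sample labels give as WT and which all received tamoxifen at 75 mg/kg on 5 days, so that cells expressing Aldh1l1 became tdTomato-positive. At 8 weeks of age the mice received either 1 injection of streptozotocin (STZ) at 150 mg/kg, which destroys insulin-producing beta cells, or the citrate buffer alone (vehicle), and their brains were collected after 21 days. STZ-treated mice were kept for the study by their fasting blood glucose. Each sample pooled the cells of 3 brains, and there were 3 vehicle and 3 STZ samples, so p-values measure the spread between pools. The label of the sorted cells depends on Aldh1l1 expression at the time of tamoxifen, and no second marker of astrocytes is named for this sort.

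Total counts were 52529000 to 58749100 per sample, at which 3 counts correspond to 0.0511 to 0.0571 CPM (counts scaled to library size). Defining astrocyte markers were high in all samples, with the summed level of 10 markers at 4965 to 5689 FPKM in vehicle and 5114 to 5605 FPKM in STZ samples (FPKM divides fragments by transcript length and by mapped reads). Transcripts of other cells were also present in every sample, with 10 oligodendrocyte markers summing to 350.3 to 1270 FPKM, 12 endothelial markers to 33.1 to 234.4 FPKM and 8 markers of choroid plexus and ependyma to 4331 to 13024 FPKM. None of the oligodendrocyte, endothelial or mural markers was at 0 in any sample.

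The promoters of 4 members are shown because the comparisons below turn on these genes: Gja1 and Gjb6 as the dominant astrocyte pair, and Gja4 and Gja5 as the endothelial connexins with the highest fold changes among the 9 members. Each is the RefSeq window of GRCm38.p6 from 250 bases before to 50 bases after the annotated start of transcription, written in the direction of transcription, with motif matches in capitals. The Gja1 window is chr10:56377050-56377349 on the plus strand, the Gjb6 window chr14:57133562-57133861 on the minus strand, the Gja4 window chr4:127313990-127314289 on the minus strand, and the Gja5 window chr3:97032152-97032451 on the plus strand.
Gja1: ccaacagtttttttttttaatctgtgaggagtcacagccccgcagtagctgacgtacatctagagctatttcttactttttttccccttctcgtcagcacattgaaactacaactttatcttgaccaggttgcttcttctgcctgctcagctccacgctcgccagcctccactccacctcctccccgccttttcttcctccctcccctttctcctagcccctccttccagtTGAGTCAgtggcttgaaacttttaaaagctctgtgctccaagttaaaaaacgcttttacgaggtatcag
Gjb6: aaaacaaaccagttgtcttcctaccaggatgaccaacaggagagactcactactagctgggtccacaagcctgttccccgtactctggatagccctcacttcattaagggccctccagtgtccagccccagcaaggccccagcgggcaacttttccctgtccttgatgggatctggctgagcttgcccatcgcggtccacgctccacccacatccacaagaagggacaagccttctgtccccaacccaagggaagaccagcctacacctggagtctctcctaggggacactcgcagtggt
Gja4: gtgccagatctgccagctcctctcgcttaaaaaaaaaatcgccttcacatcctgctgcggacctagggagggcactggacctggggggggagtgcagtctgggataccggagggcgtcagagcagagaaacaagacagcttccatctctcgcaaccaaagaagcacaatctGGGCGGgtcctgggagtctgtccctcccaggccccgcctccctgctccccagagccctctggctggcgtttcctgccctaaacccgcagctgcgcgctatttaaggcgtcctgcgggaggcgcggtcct
Gja5: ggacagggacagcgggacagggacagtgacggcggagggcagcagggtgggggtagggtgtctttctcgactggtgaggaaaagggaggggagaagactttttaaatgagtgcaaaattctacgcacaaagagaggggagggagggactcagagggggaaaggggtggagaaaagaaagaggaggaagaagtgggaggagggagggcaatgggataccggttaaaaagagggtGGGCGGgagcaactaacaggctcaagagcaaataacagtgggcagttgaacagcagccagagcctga
The search covered both strands for the GC box GGGCGG, the TATA box TATAAA, the CCAAT box CCAAT and the AP-1 site TGANTCA, which 35.7%, 13.6%, 37.4% and 7.81% of all 32851 RefSeq promoter windows held. The Gja1 window held 1 AP-1 match that began at position -19 from the start of transcription, and the Gjb6 window held no match to any of these motifs. A single GC box began at position -79 of the Gja4 window and at position -17 of the Gja5 window, and no matches overlapped. The GC content was 47.7% for Gja1, 57.3% for Gjb6, 62.0% for Gja4 and 55.7% for Gja5, against a median of 52.7% over all windows. A match to these letters is a description of the sequence and was not tied to any measurement here.

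The 9 genes spanned a wide range of levels, which were compared per transcript length as the mean FPKM over the 6 samples. Gja1 was at 1466 ± 172 FPKM (SD, n = 6) and ranked 22nd among all genes of the table, and Gjb6 was at 674.2 ± 91.8 FPKM and ranked 63rd. The third astrocyte connexin, Gjb2, stood far below them at 6.83 ± 0.766 FPKM, 0.466% of Gja1. Gjb1 (5.02 ± 3.27 FPKM), Gjc3 (4.59 ± 2.23 FPKM) and Gjc1 (3.49 ± 0.993 FPKM) followed, then Panx1 (1.85 ± 0.557 FPKM) and Gja4 (1.52 ± 0.888 FPKM), and Gja5 was lowest at 0.283 ± 0.126 FPKM. Neighbours in this order were separated in all 6 samples for Gja1 above Gjb6, Gjb6 above Gjb2, Gjc1 above Panx1 and Gja4 above Gja5. Gjb2 exceeded Gjb1 in 5 samples, Gjb1 exceeded Gjc3 in 3, Gjc3 exceeded Gjc1 in 2 and Panx1 exceeded Gja4 in 4, so that these neighbours did not differ beyond their spread over samples.

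**Figure D1:**
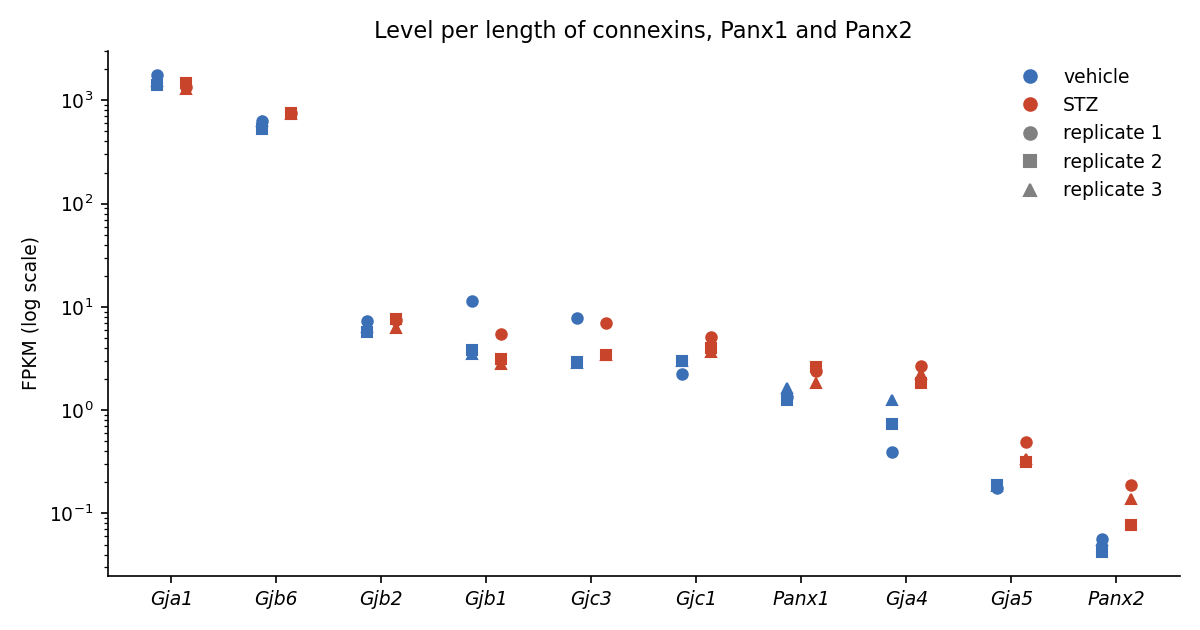
Level per transcript length (FPKM, log axis) of the 9 members and Panx2, 1 point per sample, with vehicle in blue, STZ in red and the replicate by symbol. Gja1 (1466 FPKM) and Gjb6 (674.2 FPKM) lie far above Gjb2 (6.83 FPKM), the next connexin, and Panx2 lies lowest.

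Among connexin genes that are not members, Gja3, Gjb5, Gjd2 (Cx36, the main neuronal connexin) and Gjd4 had 0 counts in all 6 samples, which at this depth allows up to 0.0571 CPM, and Gja6, Gja10, Gjd3 and Gje1 reached at most 14 counts. Of the other 2 pannexins, Panx2 was at 0.0933 FPKM and Panx3 had 0 counts in all samples. The astrocyte connexins made up 98.8% to 99.4% of the summed FPKM of all 20 connexin genes in every sample.

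The comparison of STZ with vehicle addresses how the sorted pools of STZ-treated mice differed from those of vehicle mice. In this design, high blood glucose cannot be told apart from other effects of the STZ injection. The comparison was tested with edgeR's quasi-likelihood test on the counts of the 22337 genes that had a count above 0 in each of the 6 samples, with Benjamini-Hochberg adjustment over all of them, and a gene was called where the adjusted p was under 0.05 with a fold over 1.5 in either direction. All 9 members passed the count filter, and edgeR called 0 of them, where it called 5 of all genes (0.0224%). At an unadjusted p under 0.05, 5 of the 9 were higher in STZ and 0 were lower, where the test placed 11.3% of all genes under that p (5.63% higher and 5.65% lower). DESeq2, the tool of the study's methods, called 1 member (Gja4, higher), where it called 1.05% of all genes (0.654% higher), and placed 6 of the 9 at an unadjusted p under 0.05, where it placed 10.3% of all genes. The normalized CPM of the groups did not overlap for the same 5 members, Gjb6, Gja4, Gja5, Gjc1 and Panx1, all higher in STZ, where 18.5% of all genes did not overlap (8.64% higher and 9.85% lower).

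**Figure D2:**
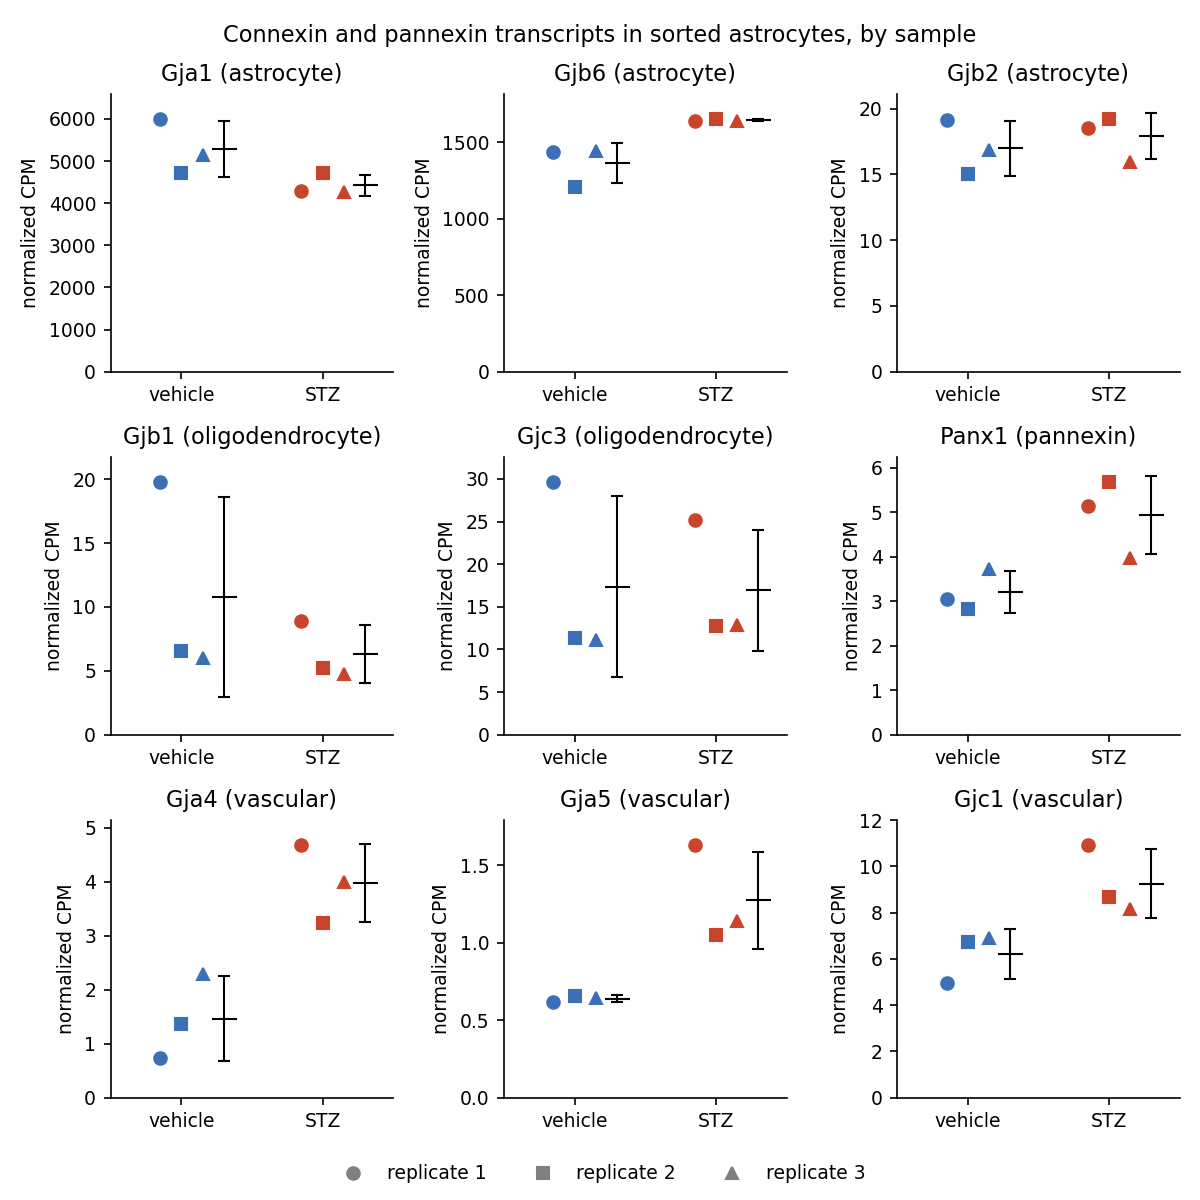
Normalized CPM (linear axes from 0) of each of the 9 members in the 3 vehicle samples (blue) and the 3 STZ samples (red), with the replicate by symbol and the mean ± SD of each group as black bars. The groups do not overlap for Gjb6, Gja4, Gja5, Gjc1 and Panx1, and Gjb1 and Gjc3 are highest in replicate 1 of each group.

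Among the astrocyte connexins, the 2 abundant genes differed from vehicle in opposite directions, and neither passed the threshold. Gja1, on chromosome 10 (56377300 to 56390419, plus strand), was at 6005, 4706 and 5140 normalized CPM in the vehicle samples and at 4289, 4719 and 4254 in the STZ samples. The groups overlapped, since STZ replicate 2 lay just above vehicle replicate 2, and vehicle replicate 1 was the highest sample. The means were 5283 ± 661 and 4421 ± 259 CPM (SD, n = 3), and the log2 fold change was -0.26 (SE 0.129; edgeR adjusted p = 0.499; 95% interval -0.56 to 0.044).

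Gjb6, on chromosome 14 (57123301 to 57133611, minus strand), was at 1436, 1210 and 1439 normalized CPM in the vehicle samples and at 1641, 1653 and 1640 in the STZ samples. All STZ samples were above all vehicle samples, and the STZ samples lay within a narrow band. The means were 1362 ± 131 and 1645 ± 7.17 CPM, and the log2 fold change was 0.27 (SE 0.0987; edgeR adjusted p = 0.390; 95% interval 0.042 to 0.50), which did not pass the threshold.

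Gjb2 lies 18599 bases from Gjb6 on the same chromosome and strand (57098602 to 57104702). It was at 19.1, 15.0 and 16.8 normalized CPM in the vehicle samples and at 18.6, 19.2 and 16.0 in the STZ samples, with overlapping groups. The log2 fold change was 0.08 (SE 0.129; edgeR adjusted p = 0.853; 95% interval -0.22 to 0.38). Gjb2 overlaps the gene Gm32912, which was at 7.66 to 13.0 CPM (log2 fold change 0.37, edgeR adjusted p = 0.432), and since no source states a strand setting for the counting, their reads cannot be told apart where they overlap. Of the other genes around this pair, Gja3 had 0 counts and Cryl1, which encodes a crystallin-related dehydrogenase, had a log2 fold change of 0.27 (edgeR adjusted p = 0.551).

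Set side by side within each sample, which removes library scaling, the 2 main astrocyte connexins stood in a different proportion in STZ and vehicle samples. Per 100 FPKM of Gja1 there were 35.4, 38.0 and 41.4 FPKM of Gjb6 in the vehicle samples and 56.6, 51.7 and 57.0 in the STZ samples. The ratio was higher in every STZ sample than in every vehicle sample, with means of 38.3 ± 3.05 and 55.1 ± 2.93. Gja1 accordingly held 70.1% to 72.8% of all connexin FPKM in the vehicle samples and 62.9% to 65.2% in the STZ samples, and Gjb6 held 25.7% to 29.0% and 33.8% to 35.9%. The sum of both genes was 1930 to 2402 FPKM in vehicle and 2039 to 2215 FPKM in STZ samples, so the groups overlapped. No p is given for this ratio, because it combines members.

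**Figure D3:**
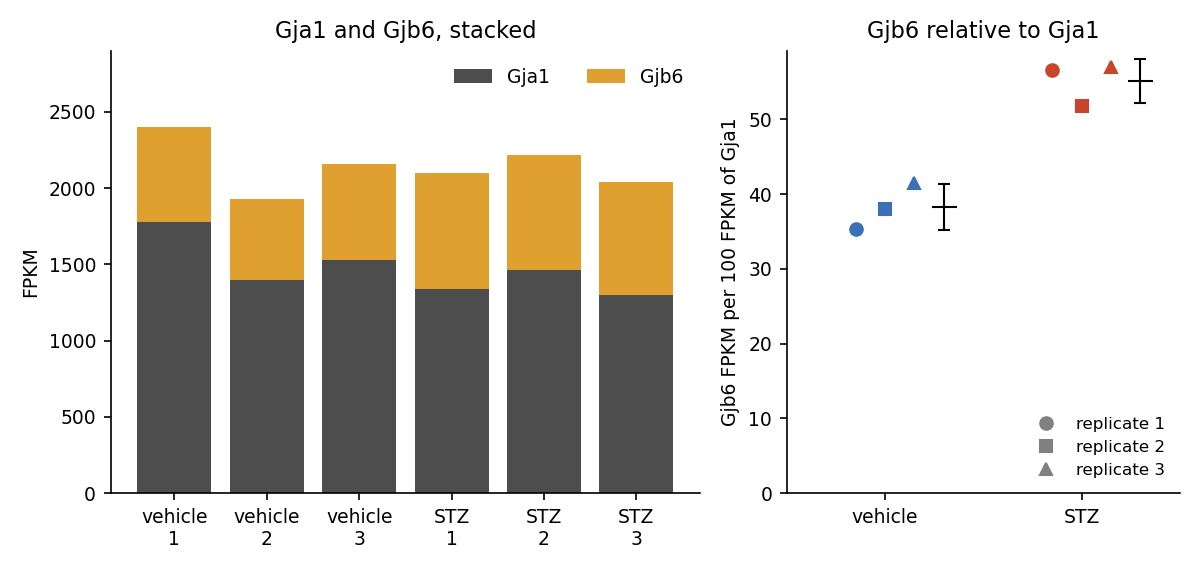
Left, FPKM of Gja1 (grey) and Gjb6 (orange) stacked for each of the 6 samples; right, Gjb6 per 100 FPKM of Gja1 by group, with the replicate by symbol and the mean ± SD as black bars. The stacked sums of the groups overlap, whereas the ratio is 35.4 to 41.4 in the vehicle samples and 51.7 to 57.0 in the STZ samples.

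Gjb2 was compared with both in the same way. Per 100 FPKM of Gja1 it was at 0.411, 0.411 and 0.423 in the vehicle samples and at 0.558, 0.526 and 0.484 in the STZ samples. Per 100 FPKM of Gjb6 it was at 1.16, 1.08 and 1.02 in the vehicle samples and at 0.985, 1.02 and 0.850 in the STZ samples. The STZ samples were all higher in the first ratio and all lower in the second. In the second ratio STZ replicate 2 (1.017) lay only just below vehicle replicate 3 (1.020). Gjb2 itself overlapped between the groups.

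The astrocyte pair was also set against the 10 astrocyte markers, which do not include a connexin. Gja1 was at 31.2, 28.2 and 29.9 per 100 of the summed marker FPKM in the vehicle samples and at 24.8, 26.0 and 25.4 in the STZ samples, and Gjb6 was at 11.0, 10.7 and 12.4 and at 14.0, 13.5 and 14.5. Both ratios separated the groups, Gja1 lower and Gjb6 higher in STZ. Of the 10 markers, edgeR and DESeq2 called 0, and edgeR placed 4 at an unadjusted p under 0.05, all lower in STZ, led by Aqp4, the endfoot water channel (log2 fold change -0.48, edgeR adjusted p = 0.280), and Atp1b2, a sodium pump subunit (log2 fold change -0.44, edgeR adjusted p = 0.301). Aldh1l1, whose promoter drives the Cre, was among the 4 (log2 fold change -0.22, edgeR adjusted p = 0.398). The median log2 fold change of the 10 markers was -0.15, beside 0.01 over all genes tested.

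All 3 vascular connexins were higher in every STZ sample than in every vehicle sample, and Gja4 and Gja5 had the highest fold changes of the 9 members. Gja4, on chromosome 4 (127311420 to 127314039, minus strand), a connexin of arterial endothelium and of mural cells, was at 0.727, 1.37 and 2.29 normalized CPM in the vehicle samples and at 4.68, 3.23 and 4.0 in the STZ samples. These values rest on 39, 71 and 131 counts and on 284, 188 and 235 counts. The groups did not overlap, but the vehicle samples spread more widely among themselves than the gap between the highest vehicle and the lowest STZ sample. Gja4 was 2.71-fold higher in STZ (log2 fold change 1.44, SE 0.400; edgeR adjusted p = 0.302; 95% interval 0.51 to 2.37), and it passed the threshold with DESeq2 (adjusted p = 0.0124) and not with edgeR or in any of the other alternatives, where the adjusted p reached 0.600.

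Gja5, on chromosome 3 (97032402 to 97053634, plus strand), another connexin of arterial endothelium, was at 0.615, 0.655 and 0.646 normalized CPM in the vehicle samples and at 1.63, 1.05 and 1.14 in the STZ samples, from 33 to 37 and 61 to 99 counts. The vehicle samples were nearly equal and all lay below the STZ samples, of which replicate 1 was highest. The fold was 1.99 (log2 fold change 0.99, SE 0.271; edgeR adjusted p = 0.301; 95% interval 0.36 to 1.63; DESeq2 adjusted p = 0.187, the lowest of 14 alternatives, which reached 0.601). Gja5 overlaps 4930573H18Rik, which had 0 counts in every sample.

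Gjc1, on chromosome 11 (102799477 to 102819686), the connexin of smooth muscle cells and pericytes, was at 4.96, 6.74 and 6.90 normalized CPM in the vehicle samples and at 10.9, 8.68 and 8.15 in the STZ samples. The groups did not overlap, with vehicle replicate 1 lowest and STZ replicate 1 highest. The log2 fold change was 0.58 (SE 0.195; edgeR adjusted p = 0.360; 95% interval 0.12 to 1.03; DESeq2 adjusted p = 0.121, the lowest of the alternatives, which reached 0.636). Together these 3 genes held 0.115%, 0.203% and 0.202% of all connexin FPKM in the vehicle samples and 0.389%, 0.275% and 0.303% in the STZ samples.

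Markers of vascular cells moved with these genes. The summed level of 12 endothelial markers was 33.1, 48.0 and 120.6 FPKM in the vehicle samples and 234.4, 178.0 and 124.8 FPKM in the STZ samples. All 12 had a log2 fold change above 0 (median 1.20, beside 51.9% of all genes above 0). At an unadjusted edgeR p under 0.05, 10 were higher, beside 5.63% of all genes. The groups did not overlap for 6, all higher, beside 8.64% of all genes. EdgeR called 0 and DESeq2 called 1, Nostrin, where it called 0.654% of all genes higher. The smallest p-values belonged to Cdh5, the endothelial cadherin (log2 fold change 1.43, edgeR adjusted p = 0.306), and Ly6c1, a surface antigen of brain endothelium (log2 fold change 1.57, edgeR adjusted p = 0.329). The 8 arterial markers, which include Stmn2, a gene also known from neurons, summed to 58.96 to 90.6 FPKM in vehicle and 116.0 to 132.0 FPKM in STZ samples. Of the 7 tested, 1 was higher at an unadjusted edgeR p under 0.05, Mgp, a matrix protein of arteries, beside 5.63% of all genes.

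Of the 10 mural markers, 9 had a log2 fold change above 0 (median 0.81), and their sum was 38.2, 46.3 and 58.6 FPKM in the vehicle samples and 78.6, 67.3 and 57.8 FPKM in the STZ samples. EdgeR called 0 and DESeq2 called 4, all higher, where it called 0.654% of all genes higher. These were Tagln (edgeR adjusted p = 0.0723) and Acta2 (edgeR adjusted p = 0.0980), which encode contractile proteins of smooth muscle, the smooth muscle myosin gene Myh11, and Rgs5, a regulator of G protein signalling in pericytes. In these bulk pools, more cells of a type and more RNA per cell cannot be told apart.

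Divided by the marker sum of its own cell type within each sample, none of the 3 vascular connexins separated the groups. Gja4 was at 1.18, 1.55 and 1.03 per 100 of the endothelial sum in the vehicle samples and at 1.15, 1.03 and 1.80 in the STZ samples. Gja5 was at 0.527, 0.394 and 0.152 per 100 of the endothelial sum in the vehicle samples and at 0.212, 0.176 and 0.272 in the STZ samples, with the lower mean in STZ. Per 100 of the arterial sum it was at 0.296, 0.275 and 0.203 and at 0.427, 0.238 and 0.292, also overlapping but with the higher mean in STZ. Gjc1 was at 5.83, 6.53 and 5.08 per 100 of the mural sum in the vehicle samples and at 6.47, 5.95 and 6.32 in the STZ samples. Against the mural sum, however, Gja4 was at 1.02, 1.60 and 2.13 in the vehicle samples and at 3.42, 2.72 and 3.89 in the STZ samples, which did not overlap. The order of samples was in part shared: STZ replicate 1 was highest and vehicle replicate 1 lowest for Gja4, Gja5 and Gjc1, as for 12 and 11 of the 12 endothelial markers and for 7 and 6 of the 10 mural markers. The part of vascular cells in these differences was not tested.

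**Figure D4:**
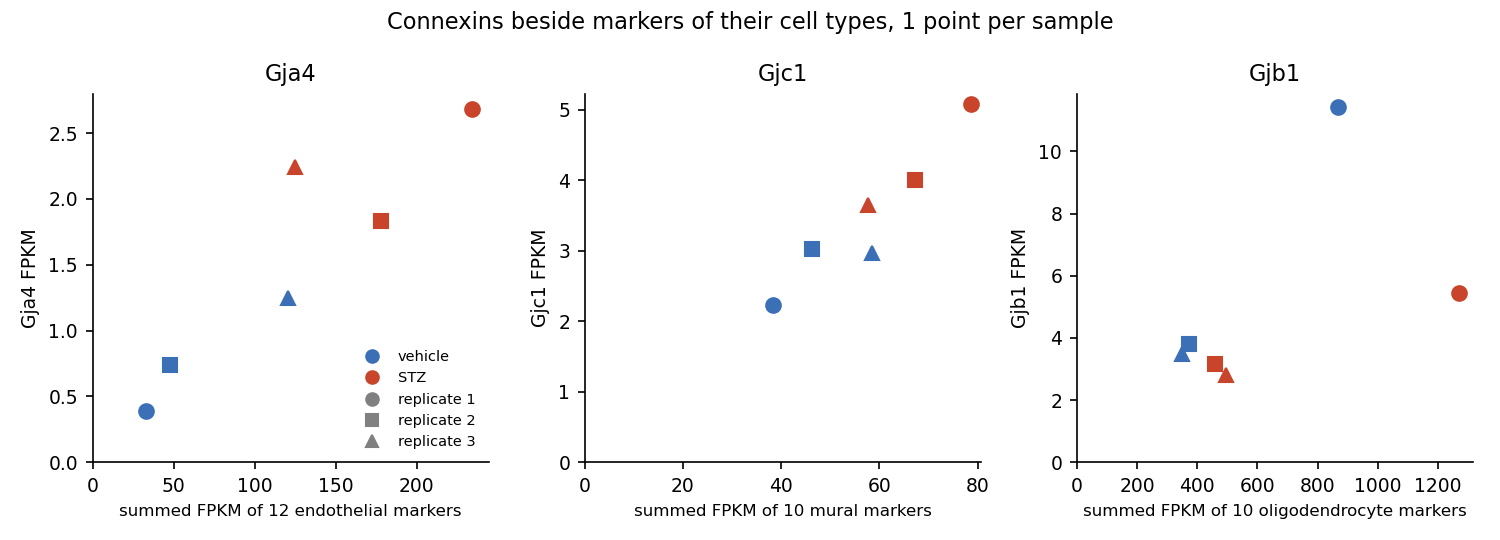
FPKM of Gja4 against the summed FPKM of 12 endothelial markers, of Gjc1 against 10 mural markers and of Gjb1 against 10 oligodendrocyte markers, 1 point per sample on linear axes from 0, with vehicle in blue, STZ in red and the replicate by symbol. The samples with the lowest and the highest endothelial sum, 33.1 and 234.4 FPKM, are also those with the lowest and the highest Gja4.

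The oligodendrocyte connexins overlapped between the groups and were highest in replicate 1 of each. Gjb1, on the X chromosome (101376376 to 101385629, plus strand), was at 19.8, 6.53 and 6.02 normalized CPM in the vehicle samples and at 8.92, 5.24 and 4.73 in the STZ samples. Vehicle replicate 1 was more than 2 times as high as STZ replicate 1, the next highest (log2 fold change -0.78, SE 0.489; edgeR adjusted p = 0.576; 95% interval -1.92 to 0.36). The log2 fold change was 0.0017 without vehicle replicate 1, and -0.33 without both libraries numbered 1.

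Gjc3, on chromosome 5 (137950992 to 137963098, minus strand), was at 29.7, 11.4 and 11.1 normalized CPM in the vehicle samples and at 25.2, 12.7 and 12.9 in the STZ samples. Replicate 1 of each group was high, and the groups overlapped (log2 fold change -0.04, SE 0.438; edgeR adjusted p = 0.981; 95% interval -1.06 to 0.98). Without vehicle replicate 1 the log2 fold change was 0.59, and without both libraries numbered 1 it was 0.19.

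Vehicle replicate 1 and STZ replicate 1 were the 2 highest samples for all 10 oligodendrocyte markers and for Gjb1 and Gjc3. The markers summed to 868.8, 373.0 and 350.3 FPKM in the vehicle samples and to 1270, 459.8 and 494.6 FPKM in the STZ samples, and edgeR and DESeq2 called 0 of the 10, with 0 at an unadjusted edgeR p under 0.05. Per 100 of this sum, Gjb1 was at 1.32, 1.02 and 0.998 in the vehicle samples and at 0.428, 0.687 and 0.569 in the STZ samples, and Gjc3 was at 0.902, 0.785 and 0.816 and at 0.553, 0.748 and 0.697, both without overlap. The myelin genes Mbp and Mobp, however, made up 62.0% of the sum in STZ replicate 1 and 18.4% to 31.8% in the other samples. Summed without these 2 genes, a choice made after seeing the data, the markers left Gjb1 at 1.25 to 1.65 in vehicle and 0.834 to 1.13 in STZ samples, still without overlap, whereas Gjc3 overlapped at 0.962 to 1.13 and 0.967 to 1.46. Whether the Gjc3 ratio separated the groups thus depended on which oligodendrocyte genes were summed. The 5 markers of oligodendrocyte precursors summed to 96.5 to 125.2 FPKM in vehicle and 88.96 to 93.2 FPKM in STZ samples, nearly all of it from Olig1, a transcription factor of the lineage (95.1 to 124.1 and 87.6 to 91.4 FPKM). Of the 4 tested, 2 had a log2 fold change below 0, Olig1 among them, and the median was -0.06. The 2 above 0 were Pdgfra (0.21) and Cspg4 (0.20). The part of oligodendrocyte lineage cells in these values was not tested.

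Panx1, on chromosome 9 (15005785 to 15045478, minus strand), was at 3.06, 2.83 and 3.74 normalized CPM in the vehicle samples and at 5.14, 5.69 and 3.98 in the STZ samples. The groups did not overlap, though STZ replicate 3 lay close to vehicle replicate 3. The fold was 1.54 (log2 fold change 0.62, SE 0.217; edgeR adjusted p = 0.373; 95% interval 0.12 to 1.13; DESeq2 adjusted p = 0.161, the lowest of the alternatives, which reached 0.693). Panx1 is expressed by many brain cells, so it was set beside 2 marker sums. Per 100 of the microglial sum it was at 0.320, 0.428 and 0.541 in the vehicle samples and at 0.743, 0.630 and 0.609 in the STZ samples, without overlap. Per 100 of the endothelial sum it was at 4.08, 2.61 and 1.37 in the vehicle samples and at 1.02, 1.48 and 1.46 in the STZ samples. These groups overlapped, with the lower mean in STZ. The source of the Panx1 transcripts was not tested. Panx2, a pannexin of neurons and glia, was at 0.224, 0.173 and 0.227 normalized CPM in the vehicle samples and at 0.676, 0.292 and 0.511 in the STZ samples, from 9 to 13 and 17 to 41 counts (log2 fold change 1.24, SE 0.378; edgeR adjusted p = 0.328; 95% interval 0.35 to 2.12). It overlaps the gene 1810021B22Rik, and reads of the 2 cannot be told apart there.

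**Figure D5:**
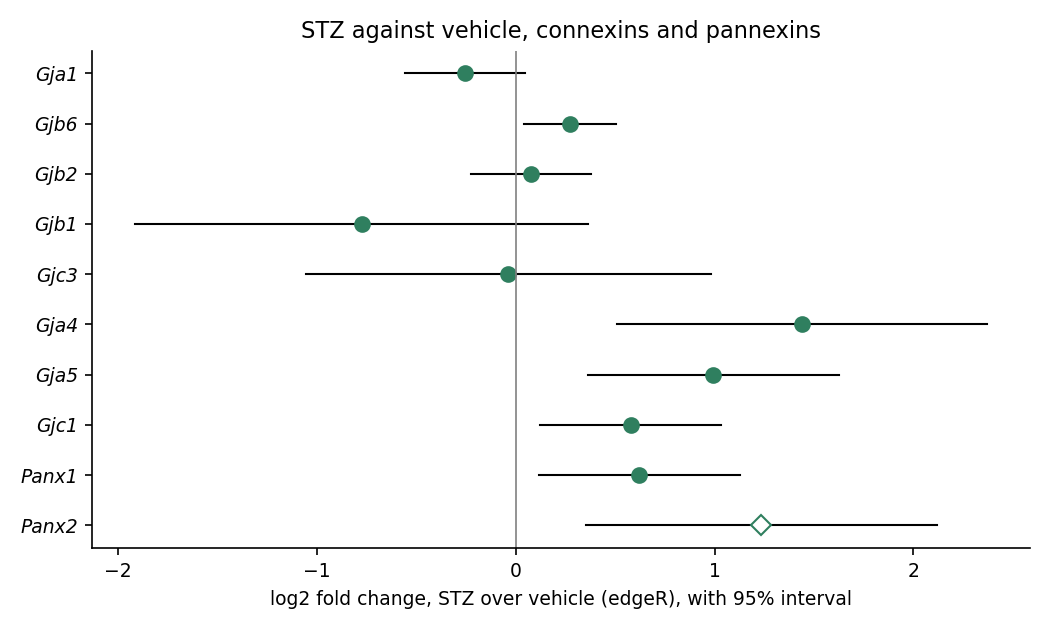
Log2 fold change of STZ over vehicle from edgeR with its unadjusted 95% interval, with members as filled circles and Panx2 as an open diamond. The intervals of Gjb6, Gja4, Gja5, Gjc1, Panx1 and Panx2 lie above 0, those of Gja1, Gjb2, Gjb1 and Gjc3 include 0, and none of these genes passed the threshold with edgeR.

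Genes that act with connexins were taken from 4 lists, and edgeR called 0 genes in each. For comparison with all 4 lists, edgeR placed 11.3% of all genes at an unadjusted p under 0.05 (5.63% higher and 5.65% lower). Of 18 scaffold and trafficking genes, 1 was higher and 2 were lower at an unadjusted p under 0.05 (median log2 fold change -0.05, 14 of 18 below 0). Ccn3, a secreted matrix protein that binds Cx43, was at 6.79, 14.7 and 32.2 normalized CPM in the vehicle samples and at 49.8, 76.5 and 33.7 in the STZ samples (log2 fold change 1.57, edgeR adjusted p = 0.360). Tjp1 (ZO-1), the scaffold that binds the tail of Cx43, was at 69.1, 58.3 and 58.3 and at 54.1, 53.0 and 52.2 (log2 fold change -0.22, edgeR adjusted p = 0.407), and both genes separated the groups.

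Of 16 kinases and phosphatases that act on connexins, 2 were higher at an unadjusted p under 0.05 and 0 were lower (median log2 fold change 0.04). These were Ptpn1, a tyrosine phosphatase (log2 fold change 0.29, edgeR adjusted p = 0.322), and Prkcd, a protein kinase C (log2 fold change 0.34, edgeR adjusted p = 0.394). Of 11 other large-pore channels tested, 1 was higher and 0 were lower (median log2 fold change 0.23): Lrrc8a, the obligatory subunit of the volume-regulated anion channel, was at 49.1, 45.3 and 45.7 normalized CPM in the vehicle samples and at 63.5, 58.9 and 51.6 in the STZ samples (log2 fold change 0.31, edgeR adjusted p = 0.317). Calhm5, a calcium homeostasis modulator channel, came next (log2 fold change 1.11, edgeR adjusted p = 0.494).

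Of 18 signals and receptors known to alter astrocyte coupling or its calcium waves, 1 was higher and 5 were lower at an unadjusted p under 0.05 (median log2 fold change 0.04). DESeq2 called 1 in each direction, where it called 1.05% of all genes in either direction. P2ry2, a receptor for extracellular ATP and UTP, was at 3.54, 3.12 and 3.16 normalized CPM in the vehicle samples and at 1.78, 1.51 and 1.67 in the STZ samples (log2 fold change -0.98, SE 0.200; edgeR adjusted p = 0.214; DESeq2 adjusted p = 0.00500). Tnf, a cytokine that lowers astrocyte coupling, was at 0.765, 0.424 and 0.873 and at 2.59, 3.45 and 1.60 (log2 fold change 1.88, SE 0.389; edgeR adjusted p = 0.218; DESeq2 adjusted p = 0.000866). The other 4 lower genes were the endothelin receptors Ednra and Ednrb, the growth factor receptor Fgfr2 and the purinergic receptor P2ry1.

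For the 6 members whose SD of log2 CPM over the 6 samples exceeded 0.3, genes with a similar pattern were found among those with a mean of at least 1 CPM, by the root mean square difference of centred log2 CPM. Gjb1 (SD 0.755) was close to Edil3 (0.115). Gja4 (SD 1.003) was nearest to Cdh5 (0.226), 3300002A11Rik (0.227) and Slc6a19 (0.229). Gja5 was nearest to Grasp (0.0729), Phyhd1 and Apoc1, Gjc1 was close to Lca5l (0.0645) and Id1, Gjc3 was nearest to Klhl4 (0.149), Arc and Smco3, and Panx1 to 9530062K07Rik (0.0746), Arrdc1 and A330093E20Rik. The 6 samples share their libraries and groups across all genes, so these distances are a description. Gja1, Gjb6 and Gjb2 varied less, with SDs of 0.185, 0.177 and 0.149.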

How the data were processed

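Sorted tdTomato-positive astrocytes were profiled by RNA sequencing in 3 vehicle and 3 STZ samples, each a pool of 3 brains, grouped by the sample labels. The labels name a SMART-Seq mRNA kit and RNA with a RIN over 7. Reads were processed by the authors with bcl2fastq 2.20.0, Trimmomatic 0.38, HISAT2 2.1.0, SAMtools 1.9 and StringTie 2.1.3b on mm10, per the submitters' processing notes. The deposited counts are raw reads assigned to each gene, as whole numbers. The FPKM and TPM values were also made by the authors, and normalize fragments for transcript length and depth. Whether counting used strand is not given in the sources used here, and the authors' removal of outlier genes, which is not described, was not repeated.

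Differences in counts were tested using edgeR 4.0.16 under R 4.3.3 (TMM, quasi-likelihood, two-sided, group as the only factor) for the 22337 of 45777 genes with a count of 1 or more in each sample, with Benjamini-Hochberg adjustment over all of them. Normalized CPM was used between samples and FPKM between genes. Intervals are unadjusted and cover the spread between pools. Alternatives were DESeq2 1.42.0, its size factors in edgeR, no filter or filterByExpr, limma 3.58.1 on log2(TPM + 1) and log2(TPM + 0.1), a replicate block, an adjusted p under 0.1, TPM or counts for ratios, and leaving out each sample. Leaving out both libraries numbered 1 together and summing oligodendrocyte markers without Mbp and Mobp were chosen after seeing the data. The procedure was tested on simulated data. Positions and promoters came from RefSeq for GRCm38.p6, the assembly of mm10, where 8 of the 9 members had a promoter window.

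The members and lists were chosen with earlier results of these data known. Named genes are the 9 members, other connexins and pannexins, genes called in each list or otherwise the 2 with the smallest p, the 3 nearest in pattern, and neighbours in connexin clusters. Genes named beyond this rule (Mbp, Mobp, Aldh1l1, Olig1, Pdgfra, Cspg4, Nostrin, Mgp, Myh11, Rgs5, Ednra, Ednrb, Fgfr2 and P2ry1) were picked once their values had been seen, and a few that the rule names are not reported here.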

Additional observations from a re-analysis of the deposited data

How the results depend on the processing

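The number of genes called over the whole table was 5 with edgeR, 10 at an adjusted p under 0.1, 234 with DESeq2, 0 with limma on log2(TPM + 1) or log2(TPM + 0.1), 0 to 1 when single samples were left out, and 0 without both libraries numbered 1, a choice made after seeing the data. DESeq2 called 1 member where edgeR called 0 (Gja4, log2 fold change 1.44), and 2 genes of the list of coupling signals and receptors. With a replicate block in the fit, 0 genes and 0 members were called, and 3 members were at an unadjusted p under 0.05, beside 8.03% of all genes. Of these, Gja4 and Gja5 were higher in STZ and Gjb1 was lower, while Gjb6, Gjc1 and Panx1 were not under that p. The numbers do not pair the samples by any label, deviations of same-numbered samples correlated at -0.101, -0.162 and -0.184, and no sample correlated best with its own number. Gjb2, Gjb1 and Gjc3 changed sign, none of them past the threshold, and ranged from -0.018 to 0.17, -1.11 to 0.0017 and -0.44 to 0.59 when single samples were left out: Gjb2 was -0.018 without vehicle replicate 2, Gjb1 0.0017 without vehicle replicate 1 (-0.33 without both libraries numbered 1 and -0.61 with the block), and Gjc3 0.046 with the block, 0.055 and 0.067 with limma on log2(TPM + 1) and log2(TPM + 0.1), 0.59 without vehicle replicate 1, 0.13 and 0.12 without STZ replicates 2 and 3, and 0.19 without both libraries numbered 1. The other 6 members kept their sign under all 14 alternatives, with log2 fold changes of 0.98 to 1.91 for Gja4, 0.38 to 1.12 for Gja5, 0.30 to 0.66 for Gjc1, 0.51 to 0.75 for Panx1, 0.18 to 0.31 for Gjb6 and -0.35 to -0.13 for Gja1. The difference between groups in Gjb6 per 100 of Gja1 was 16.9 by FPKM, and 15.4 to 18.5 when single samples were left out. By counts it was 11.4, which is on another scale because counts are not divided by length. The difference between groups in Gjc3 per 100 of the oligodendrocyte sum was -0.17, and 0.107 without Mbp and Mobp. The causes of the other differences were not tested. Depth limits Gja5 and Panx2, which rest on 33 to 99 and 9 to 41 counts per sample.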
